A study of Mus musculus with 6 samples.

Results

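The tumour suppressor gene Trp53, its inhibitors Mdm2 and Mdm4, and 7 genes that p53 is known to activate (Plk2, Trp53inp1, Zmat3, Phlda3, Sesn1, Aen and Btg2) were followed in treated and control CT26.WT cells. The 10 genes were taken by symbol from the 25407 gene rows of the deposited expression table, and each symbol had 1 row. CT26.WT is a mouse colon carcinoma line, here the only line and grown without a host. The control group has 3 libraries, and the labels say nothing more of how those cells were handled. The treated group has 3 libraries from cells that received Cu2O@AuMn@HA, a nanoparticle named for copper oxide, gold and manganese, as well as NaHS (which releases hydrogen sulfide) and NIR (near-infrared) light. No library received a single agent alone, so effects of the particle, the sulfide donor and the light cannot be told apart. The sources used here do not give the doses, the length of exposure or when cells were harvested.

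The protein p53 is a transcription factor that accumulates after DNA damage and other stress and switches on genes of cell cycle arrest, repair and cell death. MDM2 marks p53 for degradation and is itself a p53 target, so the pair forms a feedback loop, while MDM4, a relative of MDM2, binds p53 and blocks its activity as a transcription factor. Because p53 is controlled largely at the level of the protein, the RNA level of Trp53 does not report p53 activity, which was not measured here.

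The binding site of p53 is built from pairs of a short palindromic half-site. RefSeq start-site windows on GRCm38.p6 (250 bases before to 50 after each start) were found for 8 of the 10 genes. Trp53inp1 and Zmat3 had none in that table. An exact match to the p53 half-site consensus, which reads the same on both strands, stood in a window of 4 of these 8 genes, against 9.55% of all 27025 symbols with a window. The 4 matches are shown with the half-site in capitals and the 10 bases on either side, because the genes that hold them moved in both directions in the data described next.
Mdm2: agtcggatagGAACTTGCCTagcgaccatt
Sesn1: cttggccttcAAGCTTGTTTttgctggcct
Trp53: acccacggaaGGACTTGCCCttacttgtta
Aen: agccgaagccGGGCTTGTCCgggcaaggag
The Mdm2 stretch is chr10:117710925-117710954 (minus strand), that of Sesn1 chr10:41887256-41887285, that of Trp53 chr11:69580274-69580303 and that of Aen chr7:78895927-78895956 (plus strand for these 3). These GRCm38.p6 positions cannot be compared with the gene positions given below, which come from the authors' file and do not match them. For example, the Trp53 stretch lies outside the span given for Trp53 (69471185 to 69482698). A pair of half-sites with at most 2 mismatches in all and a spacer of at most 13 bases stood in a window of Sesn1 and Aen, against 11.5% of all symbols. A match of letters is a description and not a measured binding site, and sites outside these windows were not searched.

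The control libraries held 71409968 to 81821380 estimated counts each and the treated ones 62328377 to 70323604. About 4 estimated counts were taken to stand for 1 fragment, an estimate that rests on how often the value 4 occurred. Keratin genes of simple epithelia were expressed, Krt8 at 5.44 to 6.90 FPKM in control and 8.86 to 10.9 FPKM in treated libraries, and Krt18 at 58.6 to 69.0 and 152 to 172 FPKM. Of the mesenchymal genes, Vim stood at 897 to 968 and 1264 to 1338 FPKM. Fn1 was also higher in treated libraries (108 to 128 and 232 to 256 FPKM). The ranges of Cdh2 overlapped (4.52 to 5.29 and 3.67 to 4.83 FPKM). The 7 carcinoma cell markers summed to 65.6 to 75.7 FPKM in control and 162 to 184 FPKM in treated libraries, and the part of this shift in the results was not tested. The epithelial genes Epcam, Cdh1, Cldn4 and Cldn7 stayed below 0.1 FPKM in all 6 libraries. The 4 listed leukocyte markers summed to 0.0316 to 0.0917 FPKM in control and 0.0605 to 0.120 FPKM in treated libraries, and the 3 endothelial ones to 0.0229 to 0.0331 and 0.0325 to 0.0447 FPKM. The 5 fibroblast-type markers, which this line expresses in part, summed to 38.4 to 41.05 and 22.9 to 25.3 FPKM. Most of this sum was Col1a1 (30.2 to 31.7 and 14.4 to 16.1 FPKM), while Dcn went from 0.175 to 0.221 FPKM in control to 0.836 to 1.04 FPKM in treated libraries and the ranges of Pdgfra overlapped (0.521 to 0.693 and 0.634 to 0.796 FPKM). Ribosomal RNA made up 3.60% to 3.92% of the control counts and 0.209% to 0.230% of the treated counts, and mitochondrial transcripts made up 1.25% to 1.86% and 1.96% to 3.45%. The count-weighted GC content of transcripts was 52.4% to 52.7% in control and 51.8% to 52.4% in treated libraries. The part of RNA composition and GC content in the results was not tested beyond the GC-corrected fit given below. In bulk RNA, fewer cells of a kind and less RNA per cell cannot be told apart.

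All 10 genes passed the filter on low counts, and all 10 passed the test at an adjusted p of 0.05 in edgeR's quasi-likelihood test, 6 higher in treated cells and 4 lower. Across the 16212 rows tested, 46.6% passed, 23% upward and 23.5% downward. The 10 genes were chosen with earlier results of these data known, so their share is a description. Mdm2, Plk2, Trp53inp1, Sesn1, Mdm4 and Btg2 rose, and Trp53, Aen, Zmat3 and Phlda3 fell. Their median log2 fold change was 0.50, against 0.06 over all rows tested. The FPKM ranges of the groups did not overlap for any of the 10 genes, which was also true of 57.5% of all rows. The labels do not say whether libraries came from separate cultures, so the p-values here rest on a spread between libraries that may be technical. Mdm2, Plk2 and Trp53inp1 were called and changed at least 2-fold, as were 15.1% of all rows. Without treated 2 only Trp53inp1 did so (Mdm2 0.99 and Plk2 0.98 on the log2 scale), and with GC correction only Plk2 (1.01, against 0.97 for Mdm2 and 0.99 for Trp53inp1). Plk2 was also under 2-fold without control 1 (0.94) or treated 1 (0.98). So was Mdm2 without both libraries numbered 2 (0.96) or with a replicate block and GC correction (0.98). In limma on log2(FPKM + 1) over every row above 0, Trp53inp1 was at 0.83.

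**Figure D1:**
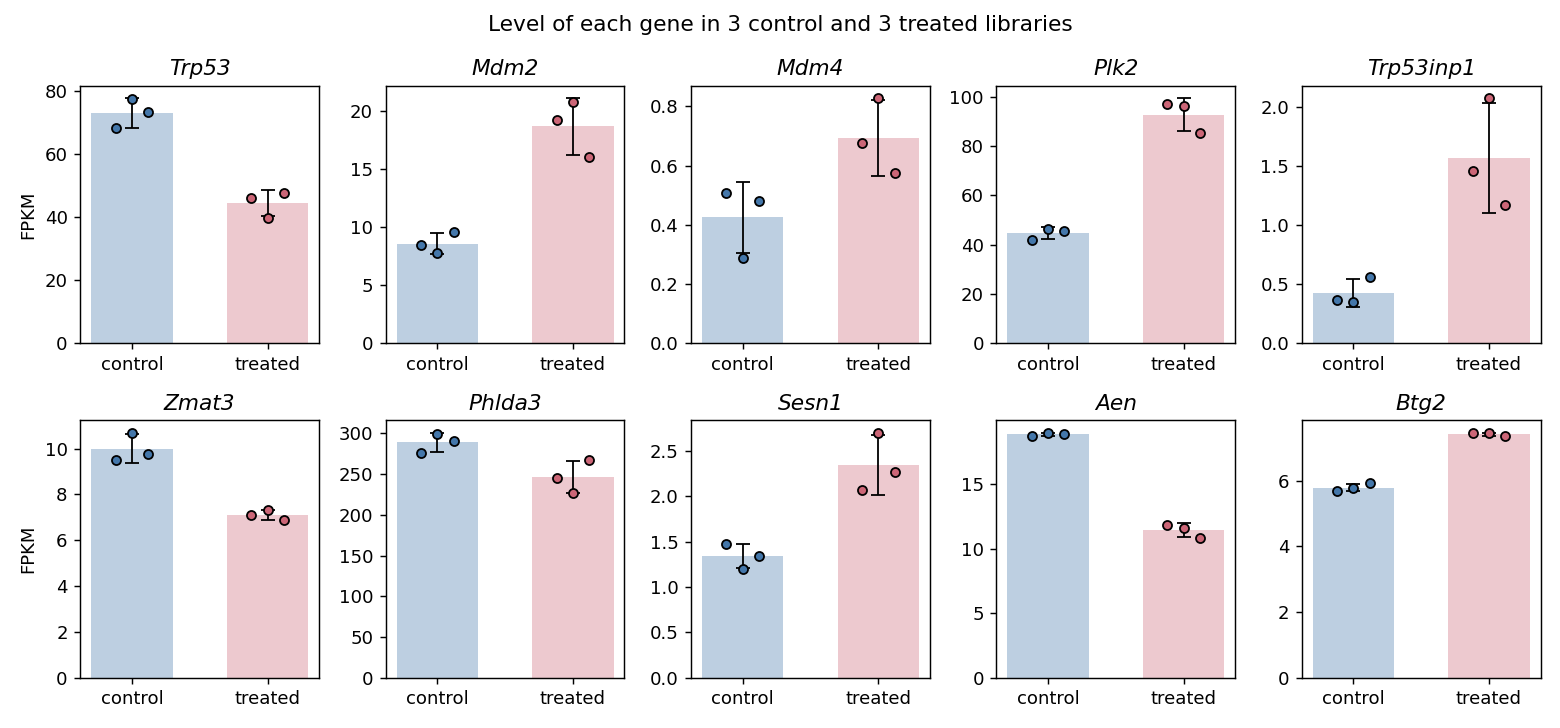
FPKM of each of the 10 genes (vertical axis, starting at 0, own scale for each gene) in 3 control and 3 treated libraries. Points are libraries, in order of their number from left to right, bars are means and error bars are SD. In every panel the treated points lie wholly above or wholly below the control points.

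Trp53 (ENSMUSG00000059552, chromosome 11, 69471185 to 69482698, plus strand; coordinates are those of the authors' file, whose build is not given) was lower in treated cells. Its level was 68.2, 77.5 and 73.3 FPKM in controls 1, 2 and 3 and 45.9, 39.7 and 47.7 FPKM in treated 1, 2 and 3. Every treated library lay below every control library, with the lowest value in treated 2. The means were 73.0 ± 4.66 and 44.5 ± 4.20 FPKM (mean ± SD with n = 3, here and below). This is a log2 fold change of −0.75 ± 0.10 (± SE; edgeR adjusted p = 0.000249), or 59.4% of the control level. The row overlaps the gene Gm57392 on the opposite strand, and whether counting used the strand is not given.

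Mdm2 (ENSMUSG00000020184, chromosome 10, 117524780 to 117546663, minus strand), which encodes the ubiquitin ligase for p53, was higher in treated cells while Trp53 was lower. The 3 controls held 8.44, 7.74 and 9.53 FPKM and the 3 treated libraries 19.2, 20.7 and 16.0 FPKM. Even the lowest treated library, treated 3, was well above the highest control. The log2 fold change was 1.08 ± 0.10 (edgeR adjusted p = 2.4e-05), a 2.12-fold rise from 8.57 ± 0.899 to 18.6 ± 2.43 FPKM, larger in size than the change of 81.9% of tested rows.

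Mdm4 (ENSMUSG00000054387, chromosome 1, 132887222 to 132953092, minus strand) was scarce, at about 92 to 234 fragments a library. Controls 1, 2 and 3 stood at 0.508, 0.288 and 0.481 FPKM and treated 1, 2 and 3 at 0.676, 0.828 and 0.574 FPKM. The groups came close, at 0.508 and 0.574 FPKM, and the control value was lowest in control 2. Its log2 fold change of 0.67 ± 0.22 passed narrowly (edgeR adjusted p = 0.0284). The call was lost in 10 of 17 alternatives (adjusted p over all of them 0.00631 to 0.154), among them without control 2 (0.45, adjusted p = 0.0759), control 3 (0.74, 0.0517), treated 1 (0.69, 0.0713) or treated 2 (0.51, 0.127). With correction for the GC content of its transcript, 43.3%, it was 0.32 (adjusted p = 0.107).

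Mdm2 RNA was compared with Trp53 RNA within each library, which does not depend on library scaling. The ratio of their FPKM was 0.124, 0.0999 and 0.130 in controls 1, 2 and 3 and 0.419, 0.522 and 0.335 in treated 1, 2 and 3. All treated ratios were above all control ratios, and the largest was in treated 2. On the geometric mean the ratio was 3.57-fold higher in treated cells (log2 difference 1.84; exact permutation test, 2-sided, p = 0.1, the smallest that 3 against 3 libraries allow). The ratio was not corrected for transcript GC content, which was 46.2% for Mdm2 and 53.3% for Trp53. In the GC-corrected edgeR fit the log2 fold changes were 0.97 for Mdm2 and −0.61 for Trp53, against 1.08 and −0.75 uncorrected. For Mdm2 to Mdm4 the ratio was 16.6, 26.9 and 19.8 in controls and 28.4, 25.03 and 27.8 in treated libraries. These ranges overlapped through control 2, and the log2 difference of 0.39 had an exact permutation p of 0.2. It was 0.23 without control 1 and 0.58 without control 2. The 2 ratios were the only ones computed, and both adjusted p-values are 0.2.

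**Figure D2:**
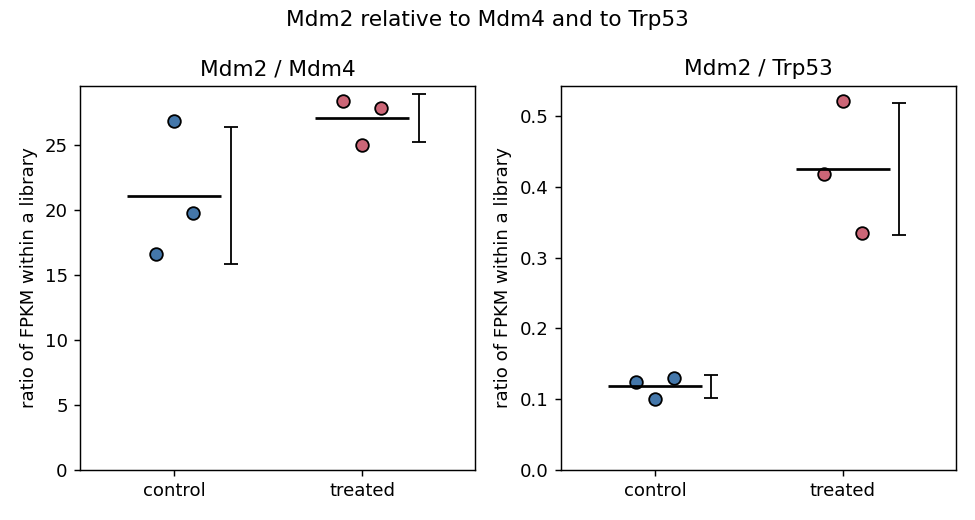
Ratio of FPKM within each library (vertical axes, from 0) for Mdm2 over Mdm4 and Mdm2 over Trp53. Points are libraries in order of their number, horizontal lines are means and the bars beside them are SD, with n = 3 a group. The Mdm2 to Trp53 ratio separates the groups (at most 0.130 in control, at least 0.335 in treated), while the Mdm2 to Mdm4 ratio of control 2 (26.9) lies among the treated values.

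Among the target genes that restrain growth, Plk2 (ENSMUSG00000021701, chromosome 13, 110531580 to 110537378, plus strand) rose in all treated libraries. It encodes a polo-like kinase with a role in centriole duplication and is also known as a serum-inducible early response gene. Controls 1, 2 and 3 held 41.8, 46.4 and 45.7 FPKM and treated 1, 2 and 3 held 97.1, 96.0 and 85.1 FPKM. The treated libraries lay far above the controls and each group kept close to its mean of 44.6 ± 2.49 or 92.7 ± 6.65 FPKM. The log2 fold change was 1.02 ± 0.08 (edgeR adjusted p = 1.2e-05), a 2.02-fold rise.

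Sesn1 (ENSMUSG00000038332, chromosome 10, 41685931 to 41784420, plus strand) encodes a sestrin, a stress protein that restrains the growth kinase complex mTORC1. It stood at 1.48, 1.20 and 1.34 FPKM in controls and 2.06, 2.70 and 2.27 FPKM in treated libraries 1, 2 and 3. Treated 2 was highest and control 2 lowest, and the groups were apart. The log2 fold change was 0.77 ± 0.16 (edgeR adjusted p = 0.00320), a 1.71-fold rise.

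Btg2 (ENSMUSG00000020423, chromosome 1, 134002908 to 134006858, minus strand), an antiproliferative gene whose product brings deadenylases to mRNAs, changed little but evenly. Its control values were 5.69, 5.76 and 5.92 FPKM and its treated values 7.43, 7.45 and 7.36 FPKM. The FPKM values of a group were nearly equal (coefficient of variation 1.95% and 0.668%) and the groups did not meet. Its log2 fold change was 0.32 ± 0.10 (edgeR adjusted p = 0.0246). The call was lost in 6 of 19 alternatives (adjusted p over all of them 0.00332 to 0.109). These included the fits without control 1 (0.28, adjusted p = 0.0901), control 3 (0.31, 0.0799), treated 1 (0.32, 0.0827) or treated 2 (0.31, 0.0544).

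Of the targets tied to stress and cell death, Trp53inp1 (ENSMUSG00000028211, chromosome 4, 11156431 to 11174379, plus strand) had the highest fold change of the 10 genes in the uncorrected edgeR fit, a rank it lost to Plk2 with GC correction (0.99 against 1.01) and to Plk2 and Mdm2 in limma on log2(FPKM + 1) (0.83 against 1.04 and 1.03). Its product is a stress protein of the nucleus that promotes the pro-death activity of p53 and also acts in autophagy. The gene stood at 0.363, 0.352 and 0.564 FPKM in controls and at 1.46, 2.07 and 1.17 FPKM in treated libraries 1, 2 and 3. All treated values were above all controls, but both groups were spread widely (coefficient of variation 28.0% and 29.5%), at about 47 to 69 fragments in control and 142 to 256 in treated libraries. The log2 fold change was 1.84 ± 0.25 (edgeR adjusted p = 0.000272), exceeding 94.7% of tested rows in size. Its transcript had the lowest GC content of the 10 genes, 38.8%, and with GC correction the value was 0.99 (adjusted p = 0.00198, with 1.0e-12 to 0.0114 over all alternatives).

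Aen (ENSMUSG00000030609, chromosome 7, 78545602 to 78560957, plus strand), whose product is a nuclease that promotes apoptosis, fell. Control libraries agreed closely at 18.8, 19.0 and 18.9 FPKM, and treated libraries held 11.9, 11.6 and 10.8 FPKM. No treated library came near a control. The log2 fold change was −0.76 ± 0.07 (edgeR adjusted p = 1.6e-05), to 59.0% of the control level, close to the change of Trp53.

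Zmat3 (ENSMUSG00000027663, chromosome 3, 32388941 to 32419827, minus strand), a zinc finger gene whose product binds RNA and affects splicing, also fell. It went from 9.49, 10.7 and 9.77 FPKM in controls to 7.09, 7.32 and 6.89 FPKM in treated libraries, again without overlap. Its log2 fold change was −0.53 ± 0.08 (edgeR adjusted p = 0.000485).

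Phlda3 (ENSMUSG00000041801, chromosome 1, 135693857 to 135696874, plus strand) encodes a small pleckstrin homology protein that holds back the kinase AKT. It was the most abundant of the 10 genes, above 98.6% of tested rows, with 276, 299.6 and 291 FPKM in controls and 245, 227 and 267 FPKM in treated libraries. Treated 3 came within a few percent of control 1. The change was small, −0.26 ± 0.09 on the log2 scale (edgeR adjusted p = 0.0433). It was lost in 10 of 19 alternatives (adjusted p over all of them 0.00229 to 0.272), including without control 2 (−0.23, adjusted p = 0.112), control 3 (−0.28, 0.0895), treated 1 (−0.26, 0.124) or treated 2 (−0.21, 0.0923).

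**Figure D3:**
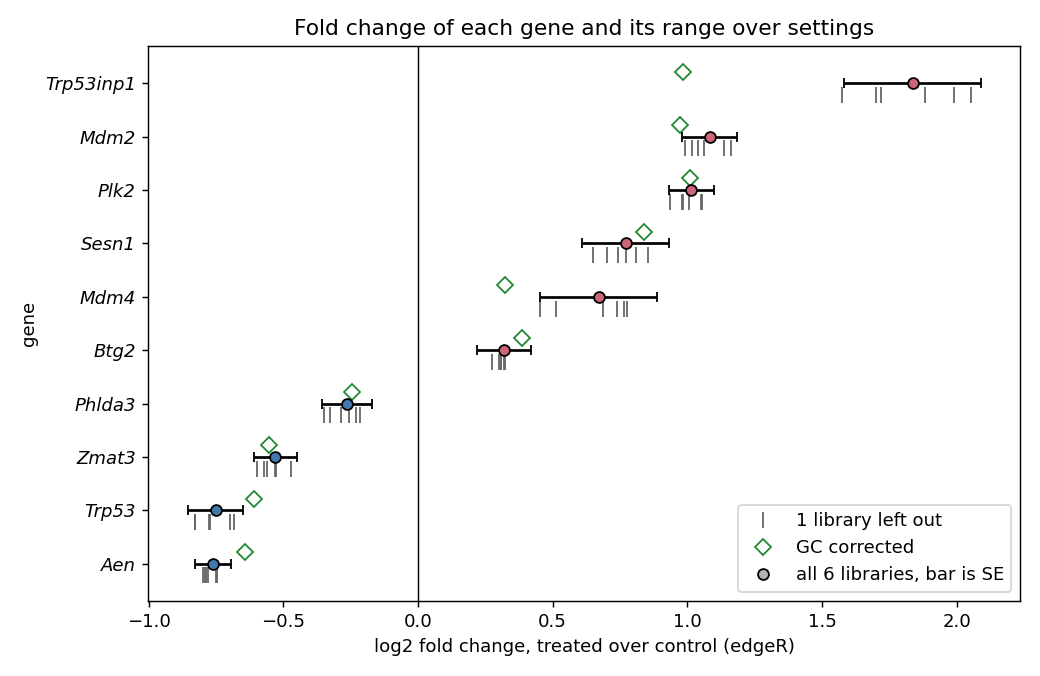
Log2 fold change of each gene, treated over control (horizontal axis), from edgeR. Circles with bars are the value from all 6 libraries with its SE, ticks are fits with 1 library left out and open diamonds are the GC-corrected fit. No gene crosses 0, and the GC-corrected values of Trp53inp1 (0.99) and Mdm4 (0.32) lie well to the left of their uncorrected ones (1.84 and 0.67).

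The order of the levels, which FPKM allows since it is scaled to length, changed between the groups. In control cells Phlda3 was followed by Trp53, Plk2, Aen, Zmat3, Mdm2, Btg2 and Sesn1, with Trp53inp1 and Mdm4 last. There the ranges of Zmat3 and Mdm2 overlapped, as did those of Trp53inp1 and Mdm4. In treated cells Plk2 (92.7 FPKM) stood above Trp53 (44.5 FPKM), and Mdm2 (18.6 FPKM) above Aen (11.4 FPKM) and Zmat3 (7.10 FPKM). The only neighbours whose treated ranges overlapped were Sesn1 and Trp53inp1.

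The libraries numbered 2 stood at the extremes for many of these genes. Control 2 was the lowest control for 4 of the 6 genes that rose and the highest control for all 4 that fell. Treated 2 was the highest treated library for 5 of the 6 that rose and the lowest for 2 of the 4 that fell, Trp53 and Phlda3. Control 2 also had the lowest mitochondrial share (1.25%) and the highest count-weighted GC content (52.7%) of all libraries, and treated 2 the highest mitochondrial share (3.45%) and the lowest GC content (51.8%). The part of these in the values was not tested. Without both libraries numbered 2, the log2 fold change was 0.96 for Mdm2, −0.60 for Trp53 and 1.49 for Trp53inp1, and 4 of the 10 genes rose and 3 fell. Mdm4, Btg2 and Phlda3 did not pass in that fit.

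The half-site matches printed above stood in genes of both directions. Of the 4 with an exact match, Mdm2 and Sesn1 rose and Trp53 and Aen fell. Mdm4, Plk2 and Btg2 (rising) and Phlda3 (falling) had windows without an exact match. In the authors' annotation, 5 of the 10 genes (Trp53, Mdm2, Mdm4, Zmat3 and Sesn1) carried the KEGG term for p53 signaling, and 5 (Trp53, Mdm2, Phlda3, Trp53inp1 and Aen) the term for the apoptotic process.

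Other genes of the p53 pathway were described from lists compiled from general knowledge. Among 9 tested targets of arrest and growth control, 3 rose and 2 fell, with a median log2 fold change of −0.06. Called genes made up 55.6% of this list, against 46.6% of all rows tested. The share over all rows depends on the filter, and the shares here and below are those of the main fit only (7548 of 16212 rows). With counts divided by 4, 7637 of 13546 rows passed, and with a count of at least 40 in at least 3 libraries 7504 of 13524. In limma at a mean FPKM of at least 1, 6414 of 10347 passed, and in edgeR over every row above 0, 6867 of 25407. Cdkn1a, the CDK inhibitor p21 and the best known target of p53, was abundant and did not pass, at 183 ± 9.85 FPKM in control and 178 ± 12.3 FPKM in treated cells (−0.08 ± 0.09, edgeR adjusted p = 0.507). Its direction turned in 3 alternatives, none of which called it, with 0.06 after GC correction. The growth arrest gene Gadd45a rose by 1.14 ± 0.11, the small GTPase gene Rap2b by 0.57 ± 0.11 and the cyclin G1 gene Ccng1 by 0.87 ± 0.18, the last being 0.22 with GC correction. Gtse1, a mitotic gene whose product restrains p53, fell by 1.40 ± 0.09 on the log2 scale, and Sesn2, a sestrin that also answers to ATF4, fell by 0.95 ± 0.10, opposite to Sesn1.

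In the list of cell death targets, 5 of 11 tested genes rose and 2 fell (median 0.25, 63.6% called against 46.6% of all rows). The BH3-only gene Bbc3 (PUMA) rose from 18.8 ± 1.57 to 31.4 ± 1.88 FPKM (0.71 ± 0.09) and the death receptor gene Fas from 0.452 ± 0.161 to 1.29 ± 0.340 FPKM (1.48 ± 0.31). Rps27l, a ribosomal protein paralog, rose by 0.51 ± 0.07, a call lost with GC correction (0.14, edgeR adjusted p = 0.357, with 2.0e-08 to 0.439 over all alternatives). Pidd1, which scaffolds caspase-2, fell by 0.85 ± 0.13, and Ei24 by 0.33 ± 0.08. The pore-forming gene Bax did not pass, with means of 172 ± 28.9 and 159 ± 28.4 FPKM (−0.16 ± 0.16, edgeR adjusted p = 0.452). Its direction turned without both libraries numbered 2 (0.08).

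Targets of DNA repair and metabolism gave 4 rising and 3 falling genes of 12 tested (median 0.25, 58.3% called against 46.6% of all rows). The number rising was 2 without control 3 or without treated 1 and 7 after GC correction. The nucleotide excision repair genes Ercc5 and Ddb2 rose by 0.93 ± 0.16 and 0.55 ± 0.14, and Ddb2 was not called without control 3 (0.48, edgeR adjusted p = 0.0534; at most 0.0744 over all alternatives). Rrm2b, a ribonucleotide reductase subunit, rose by 1.0 ± 0.27, but was not called without treated 1 (0.91), without treated 2 (0.80), without both libraries numbered 2 (0.67) or with GC correction (0.22). Tigar, which lowers glycolytic flux, fell by 1.09 ± 0.13 and Dglucy by 0.51 ± 0.08. Fdxr, a mitochondrial reductase, fell by 0.35 ± 0.12, a call lost without control 1, 2 or 3 (−0.37, −0.33 and −0.41) and without treated 1 or 2 (−0.38 and −0.27). The epoxide hydrolase gene Ephx1 stood at 276 ± 3.93 and 295 ± 18.9 FPKM (0.07 ± 0.08) and passed only with GC correction, with or without the replicate block (0.21 and 0.20).

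Among 24 tested genes that regulate p53, 4 rose and 6 fell (median −0.12, 41.7% called against 46.6% of all rows). Rchy1, a ubiquitin ligase for p53 and a p53 target, rose by 0.90 ± 0.08. The ribosomal protein genes Rpl5 and Rpl11, whose products can bind and inhibit MDM2, rose by 0.87 ± 0.09 and 0.42 ± 0.08, or 0.46 and 0.56 with GC correction. Usp10, a deubiquitinase of p53, fell from 10.8 ± 0.484 to 4.38 ± 0.484 FPKM (−1.34 ± 0.09), Huwe1, another ubiquitin ligase for p53, by 1.02 ± 0.11 and Trim28, a corepressor that works with MDM2, by 0.59 ± 0.09. The phosphatase gene Ppm1d, a p53 target that damps the pathway, did not pass (4.80 ± 0.816 and 4.14 ± 0.549 FPKM, −0.25 ± 0.16), and neither did the nucleolar gene Nop53 (−0.13 ± 0.09). Cdkn2a, the locus of the MDM2 inhibitor ARF, had no gene row under that symbol and so could not be tested.

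Paralogs of the 10 genes moved in both directions. Of 13 tested, 5 rose and 4 fell (median 0.27, 69.2% called against 46.6% of all rows). The number rising was 3 without control 1, without control 3 or without treated 1. Plk1, the mitotic polo-like kinase, fell from 97.9 ± 7.34 to 29.8 ± 2.89 FPKM (−1.75 ± 0.11), opposite to Plk2. Trp53inp2, an autophagy gene, fell by 0.93 ± 0.11, opposite to Trp53inp1. Btg1 rose by 1.03 ± 0.10 and Phlda1 by 0.94 ± 0.12, the latter opposite to Phlda3. Of the nuclease relatives of Aen, Isg20 rose by 0.84 ± 0.09 and Isg20l2 fell by 0.82 ± 0.09. Zmat2 did not pass (−0.10 ± 0.09). The p53 relative Trp63 was under the filter, at 3 to 49 estimated counts a library, and Trp73 had no gene row under that symbol.

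**Figure D4:**
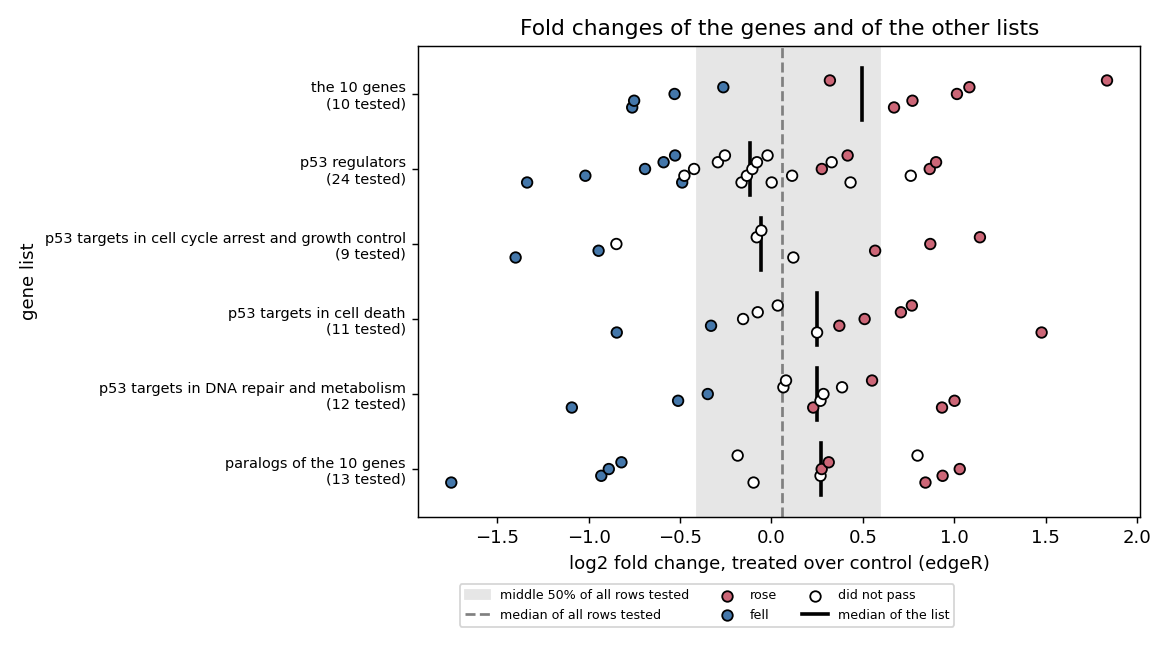
Log2 fold change, treated over control (horizontal axis), of every tested gene in each list (rows). Filled points passed the edgeR test (red rose, blue fell), open points did not, and short black lines are list medians. The grey band holds the middle 50% of all rows tested and the dashed line their median of 0.06. Each list has points on both sides of 0.

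In the authors' own annotation, 63 further genes carried the KEGG term for p53 signaling, a set looked up after the first results were seen. Of the 61 tested, 21 rose and 19 fell (65.6% called, against 46.6% of all rows), with a median of −0.08. This term also holds cyclins and other cell cycle genes, and it shares members with the lists above.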

How the data were processed

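FPKM and counts by gene were deposited for all 6 libraries, per the file headers. The deposited counts are estimated counts in whole numbers, in which the value 4 was found 4054 times and its neighbours 3 and 5 on average 2539.5 times. Among the tools in the submitters' processing notes, whose roles are not stated, are StringTie 2.1.6, HISAT2 2.2.1 and cutadapt 1.9, besides edgeR and DESeq2. Genome build, annotation release and strand setting: not given in the sources used here. Per the labels' protocols, mRNA was selected with oligo-dT beads and libraries were stranded by dUTP.

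Estimated counts were tested with edgeR 4.0.16 (R 4.3.3): default filter, TMM scaling, quasi-likelihood test, 2-sided, Benjamini-Hochberg adjustment over 16212 rows and a threshold of 0.05. The SE is the absolute log2 fold change over the square root of F. Alternatives were DESeq2 1.42.0, limma 3.58.1 on log2(FPKM + 1) or log2(FPKM + 0.1), other scalings and filters, counts divided by 4, a GC correction (loess, span 0.4, on GENCODE M21 transcripts, matched for 97.2% of rows), a replicate block and libraries left out. In simulated data for this comparison (14687 genes), 81 of 100 genes changed 2-fold and 100 of 100 changed 4-fold were recovered, and 6 of 14487 unchanged genes were called. All changed genes there had a mean count above 100, and every gene was given the same dispersion. In the real data far more rows passed (7548 of 16212), so these rates may not carry over.

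The 10 genes and all lists were chosen with earlier results of these data known. Named genes are the 10, up to 3 rising and 3 falling genes of each list with the smallest p, its most abundant gene that did not pass, and Cdkn1a, Cdkn2a, Trp63, Trp73 and Ppm1d. Intervals were not computed, and the depth of each gene is given as fragments where low.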

Additional observations from a re-analysis of the deposited data

How the results depend on the processing

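Over the 19 alternatives, 7 of the 10 genes (Trp53, Mdm2, Plk2, Trp53inp1, Zmat3, Sesn1 and Aen) kept their direction and their call wherever they were tested, and none of the 10 changed direction. Between 4 and 6 of them rose and 3 or 4 fell. Mdm4 was not called over every row above 0 (0.68 with edgeR, 0.25 with limma), with GC correction (0.32), with the replicate block (0.67), with both (0.34) or without both libraries numbered 2 (0.33). Phlda3 was not called with RLE scaling (−0.27), library totals only (−0.19), every row above 0 (−0.24 with edgeR, −0.23 with limma), the replicate block (−0.28) or without both libraries numbered 2 (−0.15). Btg2 was not called with the replicate block (0.31) or without both libraries numbered 2 (0.34). With 1 library left out, values ran from 0.45 to 0.78 for Mdm4, from −0.35 to −0.21 for Phlda3 and from 0.28 to 0.32 for Btg2. The log2 difference of the Mdm2 to Mdm4 ratio was 0.79 on FPKM + 1, a pseudocount larger than the level of Mdm4. The number rising in the list of DNA repair and metabolism was 7 with GC correction, 2 without both libraries numbered 2, and 2 to 4 with 1 library left out. That of the paralogs was 3 with the replicate block and 3 to 4 with 1 library left out, and that of the cell death list 3 with the block and GC correction. Cdkn1a turned to 0.0614 with GC correction, to 0.0607 with the block added and to 0.0363 without both libraries numbered 2, where Bax turned to 0.0773. Neither was called. On log2(FPKM + 1), Trp53inp1 was at 0.83 and Sesn1 at 0.51. The cause of these changes was not tested.

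Libraries share numbers 1 to 3 across groups, but deviations of like-numbered libraries correlated at 0.112, −0.244 and 0.0555, so the numbers were not taken as pairs. With the replicate block 6239 rows passed, against 7548. For the ratios the block gave exact sign-flip p-values of 0.5 for Mdm2 to Mdm4 and 0.25 for Mdm2 to Trp53, at unchanged differences of 0.39 and 1.84. Mdm4, Trp53inp1 and Sesn1 had the fewest fragments, and whether depth bears on their values was not tested.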
